A study of Mus musculus with 6 samples.

Results

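The BCL2 family decides at the mitochondrion whether a cell starts apoptosis, and 10 of its genes were followed here, by name, through the cortex of newborn mice with and without the amino acid transporter gene Slc7a5. They are 4 survival genes (Bcl2, Bcl2l1, Bcl2l2 and Mcl1), 2 effectors (Bax and Bak1) and 4 BH3-only genes (Bcl2l11, Bbc3, Pmaip1 and Hrk). All 10 were found among the 52550 gene identifiers counted, and all 10 were among the 14913 genes with enough reads to be tested. The knockout group held pups of genotype Slc7a5fl/fl; Emx1Cre+ (n = 3), and the control group pups of genotype Slc7a5fl/fl; Emx1Cre- (n = 3), all of strain C57BL6/J at postnatal day 2. Both groups carry the floxed alleles and only the knockouts carry Cre, so effects of the Cre allele and of the deletion cannot be told apart. Emx1-driven Cre acts in the progenitors of cortical excitatory neurons and of dorsal glia, and not in microglia, vessels or most interneurons. Each library came from polyadenylated RNA of 1 cortical hemisphere, and the titles mark the 3 libraries of either genotype as A, B and C.

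Survival proteins of this family hold the effectors BAX and BAK in check. BH3-only proteins, made or released under stress or loss of trophic support, bind the survival proteins and free the effectors, which then open the outer mitochondrial membrane and let cytochrome c reach the caspases. In the rodent cortex many neurons die by this BAX-dependent route in the first weeks after birth, and the survival of a neuron in this window is known to depend on its electrical activity and trophic input. The study concerns large neutral amino acids and the survival of neurons around birth, so the comparison asks whether transcripts of this death machinery differed at an age when that loss is under way.

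None of the 10 genes passed the test between genotypes. Hrk, which encodes the BH3-only protein Harakiri, was the one member whose 3 knockout values all lay above the 3 control values. The promoter of Hrk is shown first only because its groups did not overlap. Those of Bcl2l11, which encodes BIM, and Bbc3, which encodes PUMA, are shown beside it as BH3-only genes whose groups overlapped. The windows run from 250 bases before to 50 bases after a RefSeq start on GRCm38.p6, and capitals mark matches to the motifs named below. Hrk is read from the plus strand at chr5:118169514-118169813, Bcl2l11 (the first of its 2 windows) from the plus strand at chr2:128125788-128126087, and Bbc3 (the second of its 3 windows) from the plus strand at chr7:16310011-16310310.
Hrk: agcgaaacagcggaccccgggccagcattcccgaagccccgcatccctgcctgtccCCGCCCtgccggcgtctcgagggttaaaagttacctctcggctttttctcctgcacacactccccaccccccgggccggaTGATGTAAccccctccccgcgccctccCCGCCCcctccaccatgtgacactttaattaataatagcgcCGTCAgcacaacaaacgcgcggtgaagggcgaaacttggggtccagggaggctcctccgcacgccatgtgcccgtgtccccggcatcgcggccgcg
Bcl2l11: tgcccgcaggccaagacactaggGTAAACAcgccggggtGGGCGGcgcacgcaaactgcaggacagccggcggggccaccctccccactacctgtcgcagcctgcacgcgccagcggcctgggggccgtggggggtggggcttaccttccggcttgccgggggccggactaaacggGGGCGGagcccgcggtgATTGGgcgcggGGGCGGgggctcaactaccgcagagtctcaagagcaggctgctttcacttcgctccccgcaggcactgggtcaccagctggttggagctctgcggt
Bbc3: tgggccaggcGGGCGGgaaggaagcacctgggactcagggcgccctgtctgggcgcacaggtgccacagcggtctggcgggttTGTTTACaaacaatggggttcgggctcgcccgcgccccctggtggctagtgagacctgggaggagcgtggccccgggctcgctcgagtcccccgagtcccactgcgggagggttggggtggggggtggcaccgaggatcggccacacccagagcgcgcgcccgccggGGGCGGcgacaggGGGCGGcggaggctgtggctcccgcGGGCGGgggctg

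The motifs were searched on both strands. The cyclic AMP response element, CRE, was spelled TGACGTCA and its half-site TGACG, and the element shared by C/EBP and ATF factors was spelled TGATGNAA. The AP-1 site was spelled TGANTCA, the FOXO site GTAAACA and the E2F site TTTNGCGC. Of the core promoter elements, the GC box was spelled GGGCGG, the TATA element TATAAA and the last box CCAAT. The p53 half-site was searched single and paired. A full CRE also counts as a half-site, and a paired p53 site as half-sites. The Hrk window held 1 match to TGATGNAA at 114 bases before the start, a motif found in 3.97% of 32841 windows of 27018 genes. It also held 1 CRE half-site (in 20.8% of windows) and 2 GC boxes (in 35.7%), with 65.7% G and C and 29 CpG, against medians of 52.7% and 7 over the windows. GTAAACA, in 3.65% of windows, occurred once in the Bcl2l11 window and once in the Bbc3 window printed, which were chosen for it after the search. The other window of Bcl2l11 and the other 2 of Bbc3 held no such match, and no window of either gene held TGATGNAA. A p53 half-site, in 8.36% of windows, occurred in the Bax window, and a paired one, in 0.0731% of windows, in none of the windows of the 9 members searched. These matches describe the letters in each window and no binding was measured. The annotation also has an Hrk transcript that starts farther upstream than this window.

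The libraries held 8249436 to 10372582 counts on genes. Slc7a5, the deleted gene, had 15.6, 9.37 and 11.4 CPM (counts scaled to library size with TMM factors) in knockouts A, B and C, against 20.2, 40.7 and 26.1 CPM in controls A, B and C. All knockouts lay below all controls, a log2 change of -1.25 ± 0.28 (SE) that did not pass (edgeR adjusted p = 0.400, or 0.421 with the letter as a block). Xist, the transcript of the inactive X chromosome, was at 961 and 918 CPM in the knockout and the control of letter B and at most 2.95 CPM elsewhere, so both letter B libraries came from females. All 13 markers of projection neurons were detected and tested, and their summed level was 3431 to 3753 CPM in knockouts and 3501 to 3858 CPM in controls. In these bulk samples, fewer cells of a type and less RNA per cell cannot be told apart.

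Of the 14913 genes tested, 5 passed edgeR's quasi-likelihood test at a Benjamini-Hochberg adjusted p under 0.05, which is 0.0335% (3 higher in the knockout, 0.0201%, and 2 lower, 0.0134%). Of the 10 BCL2 family genes 0 passed, against that background. With the letter as a block, 49 genes rose (0.329%) and 77 fell (0.516%), and again 0 of the 10 were among them. DESeq2 also called 0 of the 10, against 0.139% of 18685 genes. At an unadjusted p under 0.05, edgeR gave 1 of the 10, Hrk, against 7% of all genes, as did the block fit, against 11.9% of all genes, and DESeq2, against 3.06% of the 25648 genes it gave a p. The members split into 4 with a positive and 6 with a negative log2 change, with a median of -0.025, beside 0.0011 over all genes, of which 50.2% were positive. Without knockout A the median of the 10 was 0.046, and without control A it was -0.10. All knockouts lay above all controls for 1 of the 10 (5.89% of all genes), and below them for 0 of the 10 (6.28% of all genes). Paired by letter, Hrk was higher and Bak1 lower in all 3 knockouts, and the other 8 members differed in sign between letters.

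**Figure D1:**
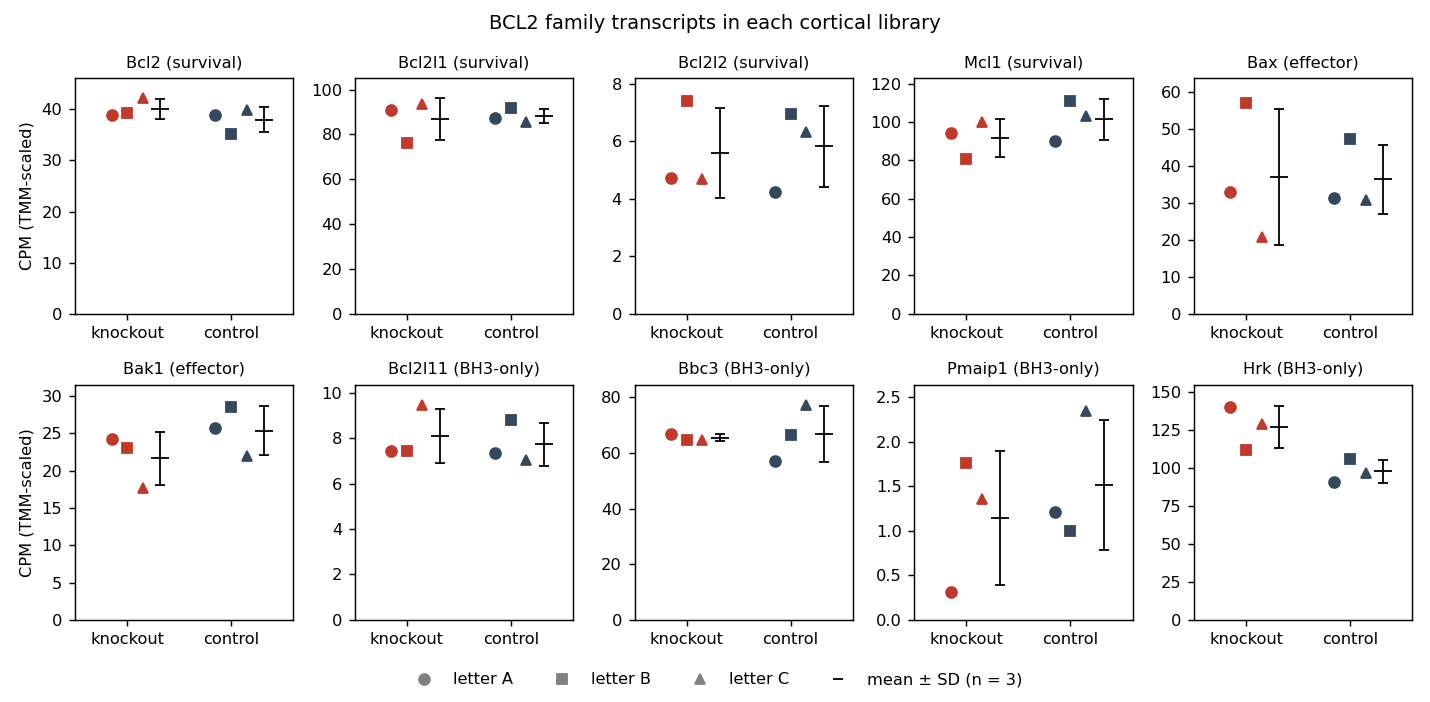
Level of each BCL2 family gene (y axes, CPM scaled by TMM, starting at 0) in the 3 knockout (left) and 3 control (right) libraries, with marker shapes for the letters and the mean ± SD beside each group. Only Hrk shows every knockout above every control (112.3 CPM at the lowest knockout and 106.1 CPM at the highest control), as 5.89% of all genes did. Bax is highest in the letter B library of each genotype.

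Among the survival genes, Bcl2 encodes the founding member of the family (ENSMUSG00000057329, chromosome 1 from 106538178 to 106714274, minus strand). It had 38.8, 39.2 and 42.3 CPM in knockouts A, B and C, against 38.9, 35.2 and 39.8 CPM in controls A, B and C. The groups overlapped, with a log2 change of 0.08 ± 0.11 (SE, 95% interval -0.16 to 0.32, edgeR adjusted p = 0.934). Bcl2 lay within a range of 35.2 to 42.3 CPM over all 6 libraries.

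Bcl2l1 encodes BCL-XL, the survival protein on which young postmitotic neurons are known to depend (ENSMUSG00000007659, chromosome 2 from 152780668 to 152831728, minus strand). Its level was 90.9, 76.2 and 93.5 CPM in knockouts A, B and C, against 87.5, 91.5 and 85.4 CPM in controls A, B and C. Knockouts A and C stood above their controls and knockout B below its own, so the groups overlapped (log2 change -0.02 ± 0.11, 95% interval -0.25 to 0.20, edgeR adjusted p = 0.985). Counts per gene do not separate the long, protective transcript of Bcl2l1 from its short, death-promoting splice form.

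Mcl1 encodes a short-lived survival protein that neural progenitors need (ENSMUSG00000038612, chromosome 3 from 95658788 to 95663176, plus strand). It had 94.4, 81.0 and 100.2 CPM in knockouts A, B and C, against 90.0, 111.1 and 103.4 CPM in controls A, B and C. The log2 change was -0.14 ± 0.11 (95% interval -0.38 to 0.09, edgeR adjusted p = 0.849), and letter B made most of it. The knockout of letter B was lower than its control by a log2 difference of -0.46, beside 0.07 for letter A and -0.05 for letter C.

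Bcl2l2 encodes BCL-w, a survival protein of mature neurons and their axons (ENSMUSG00000089682, chromosome 14 from 54883377 to 54888234, plus strand). It was sparse, with 4.73, 7.42 and 4.68 CPM in knockouts A, B and C, against 4.23, 6.95 and 6.32 CPM in controls A, B and C. The libraries of letter B were the highest of each genotype, and the log2 change was -0.04 ± 0.26 (95% interval -0.59 to 0.51, edgeR adjusted p = 0.988). Bcl2l2 shares 594 exon bases with Gm20521 on its own strand, and reads within such shared bases are assigned to neither gene in this kind of count.

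Among the effectors, Bax encodes the pore-forming protein through which developing neurons mostly die (ENSMUSG00000003873, chromosome 7 from 45461697 to 45466898, minus strand). Its level was 32.9, 57.1 and 20.9 CPM in knockouts A, B and C, against 31.3, 47.3 and 30.9 CPM in controls A, B and C. Both letter B libraries, the ones with high Xist, stood above the other 4, and the part of sex or of any other difference between letters was not tested. This spread within each genotype gave a log2 change of 0.03 ± 0.44 (95% interval -1.12 to 1.18, edgeR adjusted p = 0.996). With the letter as a block the estimate was -0.05 ± 0.13 (edgeR adjusted p = 0.929), and the 3 letters disagreed, at 0.07 for A, 0.27 for B and -0.56 for C. Bax has 192 exon bases in common with Gm45808 on its strand.

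Bak1 encodes BAK, the second effector (ENSMUSG00000057789, chromosome 17 from 27019810 to 27029009, minus strand). It had 24.3, 23.1 and 17.7 CPM in knockouts A, B and C, against 25.7, 28.5 and 22.0 CPM in controls A, B and C. Each knockout lay below the control of its letter, by log2 differences of -0.08, -0.31 and -0.32 for A, B and C, but the groups overlapped. The log2 change of -0.22 ± 0.15 did not pass (95% interval -0.55 to 0.10, edgeR adjusted p = 0.824, or 0.502 with the letter as a block). Bak1 shares exon bases with Ggnbp1 on the other strand, and no member had more than 21 reads in a library on the strand opposite to its own.

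Of the BH3-only genes, Hrk encodes a protein found mainly in the nervous system and known to be induced in neurons deprived of trophic factors (ENSMUSG00000046607, chromosome 5 from 118164648 to 118189478, plus strand). Its counts were 1361, 1211 and 1243 in knockouts A, B and C, against 906, 855 and 948 in controls A, B and C. As levels these were 140.1, 112.3 and 129.1 CPM in the knockouts, against 91.2, 106.1 and 96.6 CPM in the controls. The groups did not overlap, and the mean was 127.2 ± 14.0 CPM in knockouts and 97.9 ± 7.53 CPM in controls (SD, n = 3 each), a ratio of 1.30. The log2 change was 0.38 ± 0.11 (SE, 95% interval 0.15 to 0.61), and Hrk ranked 111 of the 14913 genes by p. After adjustment over all genes it did not pass (edgeR adjusted p = 0.442, DESeq2 adjusted p = 0.447). The block fit gave 0.37 ± 0.10 and an edgeR adjusted p of 0.0563, above the threshold.

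The difference in Hrk was uneven over the letters, at 0.62 for A, 0.08 for B and 0.42 for C on the log2 scale. Leaving out 1 library at a time kept the log2 change between 0.30 and 0.46 and the edgeR adjusted p between 0.212 and 0.9995. With the letter as a block and letter B left out, an alternative chosen after seeing the data, the log2 change was 0.52 and the edgeR adjusted p 3.69e-04. Without letter A it was 0.26 (adjusted p = 0.379), and without letter C 0.35 (adjusted p = 0.441). Letter B has the smallest difference, so leaving it out had to raise the estimate, and its pass is no separate support.

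Most interneurons lie outside the Cre lineage, and the summed level of their markers was also separate between the groups, by a narrow margin. None of these markers passed in edgeR without the block. The summed level of 14 interneuron markers was 2316, 2078 and 1985 CPM in knockouts A, B and C, against 1963, 1895 and 1890 CPM in controls A, B and C, so these groups did not overlap either. Of the 14, 12 had a positive log2 change, with a median of 0.24 (0.21 to 0.28 with 1 library left out), and none was at 0. Gad2, an enzyme of GABA synthesis, averaged 120.2 ± 6.12 CPM in knockouts and 84.2 ± 22.8 CPM in controls (SD, n = 3 each), and rose in the block fit (edgeR adjusted p = 0.0191) but not without it (0.539). Summed Cajal-Retzius markers were also separate, at 379.0 to 442.1 CPM in knockouts and 325.9 to 368.9 CPM in controls. Reln and Cacna2d2 made up most of that sum, at 156.4 and 192.0 CPM in knockouts and 138.6 and 161.0 CPM in controls. Trp73 and Ebf3 averaged 3.88 and 3.54 CPM in knockouts, with log2 changes of 0.13 ± 0.28 and 0.02 ± 0.30. In the other direction, oligodendrocyte lineage markers were separate, at 240.6 to 256.8 CPM in knockouts and 266.3 to 319.2 CPM in controls. The sums of the other gene lists described below overlapped, and no sum was tested. The share of uniquely mapped reads on no exon of the counted strand was 27.4, 27.9 and 27.8% in knockouts A, B and C. It was 26.5, 22.5 and 23.0% in controls A, B and C, again with every knockout above every control. The part of cell composition and of this library measure in the difference of Hrk was not tested.

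Bbc3 encodes PUMA, a BH3-only protein downstream of p53 and FOXO factors (ENSMUSG00000002083, chromosome 7 from 16308393 to 16318205, plus strand). It had 67.0, 64.8 and 64.8 CPM in knockouts A, B and C, against 57.0, 66.4 and 77.3 CPM in controls A, B and C. All knockouts lay inside the range of the controls, and the log2 change was -0.03 ± 0.12 (95% interval -0.28 to 0.22, edgeR adjusted p = 0.979).

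Bcl2l11 encodes BIM, induced by FOXO factors and JNK signalling when trophic support is lost (ENSMUSG00000027381, chromosome 2 from 128126038 to 128162547, plus strand). It had 7.41, 7.42 and 9.46 CPM in knockouts A, B and C, against 7.35, 8.81 and 7.03 CPM in controls A, B and C. Knockout C and control B were the highest of their groups, which overlapped (log2 change 0.07 ± 0.20, 95% interval -0.35 to 0.49, edgeR adjusted p = 0.966).

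Pmaip1 encodes NOXA, a partner of MCL-1 (ENSMUSG00000024521, chromosome 18 from 66458533 to 66465565, plus strand). It was barely detected, with 3, 19 and 13 reads in knockouts A, B and C, against 12, 8 and 23 reads in controls A, B and C. At this depth a log2 change of -0.41 ± 0.51 could not be told from 0 (95% interval -1.50 to 0.69, edgeR adjusted p = 0.922).

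**Figure D2:**
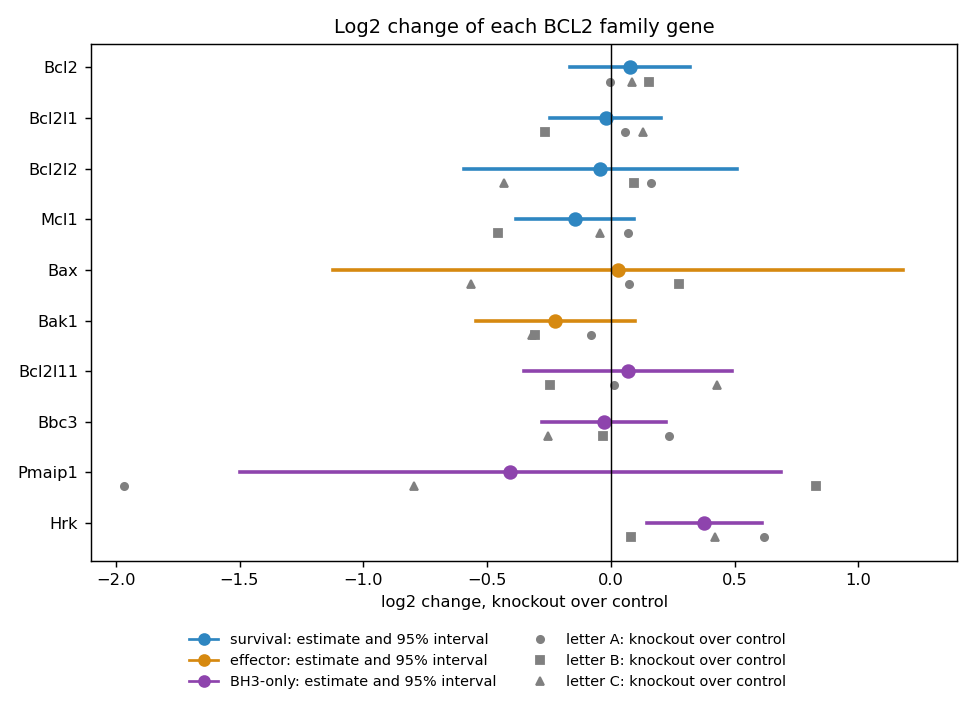
Log2 change of each BCL2 family gene, knockout over control (x axis), with the estimate and 95% interval of the unpaired edgeR fit coloured by role, and below it the log2 difference of each letter in grey. The intervals of 9 genes cross 0, that of Hrk runs from 0.15 to 0.61, and those of Bax and Pmaip1 are the widest.

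Levels were compared between genes per length, as RPKM over all annotated exon bases of a gene. The mean over the 6 libraries and their range was 31.2 RPKM for Bbc3 (26.8 to 36.4), 28.3 for Mcl1 (23.7 to 32.5), 23.3 for Bax (13.3 to 36.3), 19.8 for Hrk (16.1 to 24.7) and 19.1 for Bcl2l1 (16.6 to 20.4). Each of these 5 overlapped its neighbour in the order. Bak1 followed at 9.78 RPKM (7.34 to 11.9) and Bcl2 at 4.26 RPKM (3.85 to 4.62), both separate from their neighbours. Bcl2l2 at 1.28 RPKM (0.947 to 1.66) and Bcl2l11 at 0.985 RPKM (0.875 to 1.18) overlapped each other. Pmaip1 was lowest at 0.486 RPKM (0.113 to 0.858). Bcl2l1 and Mcl1 were thus the most abundant survival transcripts, several times above Bcl2, and Bbc3 and Hrk the most abundant of the 4 BH3-only members. The order within the top 5 depends on the length used, since with the longest annotated transcript Bcl2l1 took rank 2 at 34.1 RPKM and Mcl1 rank 4 at 28.3 RPKM.

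**Figure D3:**
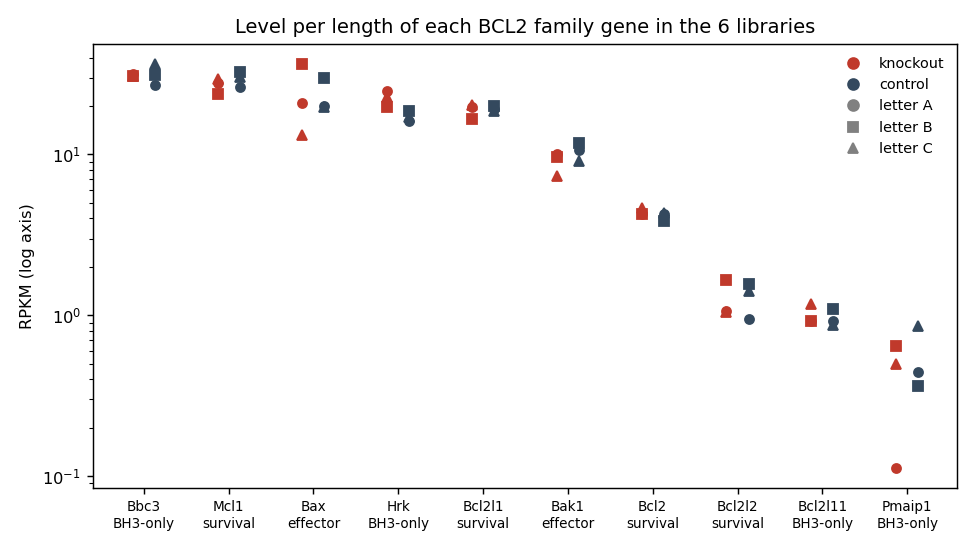
Level per length of each BCL2 family gene (y axis, RPKM on a log scale) in knockout libraries (left of each pair) and control libraries (right), with marker shapes for the letters, ordered by the mean over the 6 libraries. Means run from 31.2 RPKM for Bbc3 to 0.486 RPKM for Pmaip1, and the top 5 genes overlap with their neighbours.

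Summed by role, BH3-only transcripts made up 40.6, 36.0 and 42.0% of the RPKM of the 10 genes in knockouts A, B and C, against 35.3, 34.0 and 39.8% in controls A, B and C. The means were 39.5 ± 3.12% in knockouts and 36.4 ± 3.05% in controls (SD, n = 3 each), and the groups overlapped. Survival transcripts averaged 37.3 ± 5.08% in knockouts and 39.4 ± 1.03% in controls, and effectors averaged 23.2 ± 8.12% in knockouts and 24.3 ± 3.48% in controls. Without Hrk, a choice made after seeing the data, BH3-only transcripts took 27.9 ± 1.97% in knockouts and 27.3 ± 3.59% in controls. The shares are a description, with no test, and they carry the letter dependence of Bax. They also leave out BH3-only genes outside the 10, such as Bad, which averaged 133.2 CPM in knockouts and 164.7 CPM in controls.

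**Figure D4:**
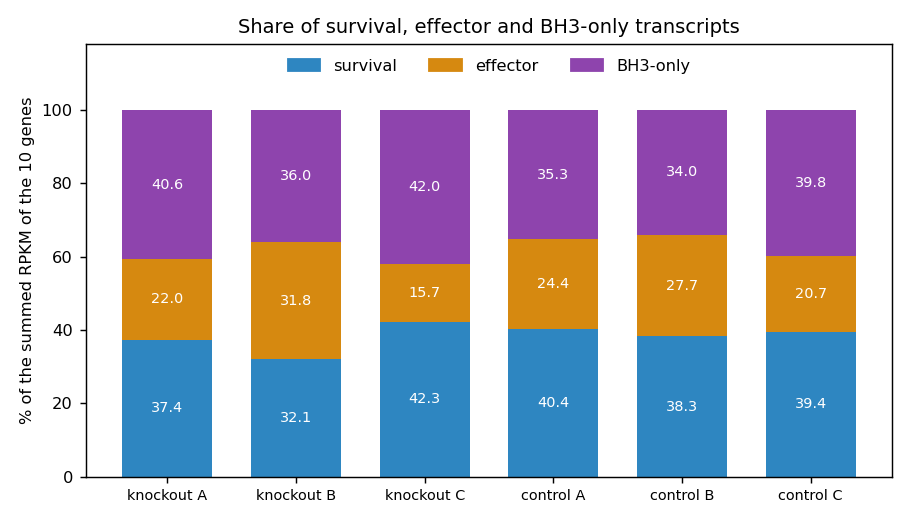
Share of survival, effector and BH3-only transcripts in the summed RPKM of the 10 genes (y axis, percent) in each library, knockouts left of controls. The BH3-only share is 36.0 to 42.0% in knockouts and 34.0 to 39.8% in controls, and the effector share is highest in letter B of each genotype.

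The rest of the death pathway was described through lists of genes, none of which held a gene that passed in edgeR, with or without the letter block. Each median of a list is followed by its range over the fits that lack a single library. Of 13 other BCL2 family genes 6 had enough reads, 2 with a positive and 4 with a negative log2 change (median -0.13, range -0.24 without knockout A to -0.042 without knockout C), and Bcl2a1a, Bcl2a1d and Bcl2l10 were at 0 in all libraries. Bad, a BH3-only gene whose protein is held inactive by trophic kinases, had 141.1, 128.0 and 130.6 CPM in knockouts A, B and C, against 154.8, 178.5 and 160.8 CPM in controls A, B and C. All knockouts lay below all controls, with a log2 change of -0.31 ± 0.10 that did not pass (edgeR adjusted p = 0.526, or 0.125 with the block). Bok, an effector relative, had a log2 change of -0.16 ± 0.14. Bid, also of this list, had every knockout below every control too, at a log2 change of -0.15 ± 0.13. These 2 of the 6 tested genes stand beside 6.28% of all genes. Hrk and Bad are both BH3-only genes, and their values differed in opposite directions, though neither passed.

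Downstream of the mitochondria, 14 of 15 genes of the apoptosome, the caspases and released mitochondrial factors were tested, 7 with a positive and 7 with a negative log2 change (median 0.0046, range -0.047 to 0.070). Endog, a mitochondrial nuclease, averaged 9.72 ± 1.63 CPM in knockouts and 12.9 ± 1.45 CPM in controls, and Dffb, the caspase-activated DNase, 9.52 ± 1.63 CPM in knockouts and 7.12 ± 0.814 CPM in controls (SD, n = 3 each). Neither passed (edgeR adjusted p = 0.705 and 0.712). Of the inhibitor of apoptosis proteins 4 were tested, 1 positive and 3 negative (median -0.07, range -0.12 without control A to -0.022 without knockout A), and Birc5 and Birc2, with the smallest p, had log2 changes of -0.15 ± 0.14 and -0.12 ± 0.12.

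Upstream, 14 inducers of BH3-only genes, among them p53 family members, FOXO factors and the JNK cascade, gave 5 positive and 9 negative log2 changes (median -0.07, range -0.11 without knockout C to -0.029 without knockout B). The smallest p belonged to Ddit3 (CHOP), a factor of the integrated stress response, at 45.4 ± 5.84 CPM in knockouts and 37.1 ± 2.999 CPM in controls, and then to Atf4, its activator, at 345.9 ± 64.7 CPM in knockouts and 292.6 ± 14.5 CPM in controls (SD, n = 3 each). Both groups overlapped and neither passed (edgeR adjusted p = 0.689 and 0.742). Genes for the turnover of MCL1 and BIM proteins split 2 and 2 of 4 tested (median 0.016, range -0.014 to 0.049), with Usp9x, a deubiquitinase of MCL-1, at a log2 change of 0.25 ± 0.13 and Fbxw7, a ubiquitin ligase subunit, at -0.11 ± 0.12. Trophic factors and receptors split 6 and 6 of 12 tested (median -0.0075, range -0.062 to 0.075), with Ntrk2, the BDNF receptor, at -0.18 ± 0.11 and Sort1, a co-receptor for pro-neurotrophins, at -0.15 ± 0.10.

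In the death receptor pathway 7 of 11 genes were tested, 1 positive and 6 negative (median -0.10, range -0.17 without control A to 0.044 without control B). Tnfrsf10b, a TRAIL receptor, averaged 0.616 ± 0.3502 CPM in knockouts and 1.30 ± 0.392 CPM in controls, a level of few reads, and Ripk1, a kinase of this pathway, 6.99 ± 0.609 CPM in knockouts and 5.47 ± 0.241 CPM in controls (SD, n = 3 each). For the recognition and clearance of dead cells, 8 of 12 tested genes were positive and 4 negative (median 0.077, range -0.042 without control A to 0.18 without knockout B). Tyro3, a receptor for phosphatidylserine bridging ligands, had a log2 change of -0.21 ± 0.11, and Spp1, osteopontin, of 0.85 ± 0.44 (edgeR adjusted p = 0.737 and 0.766).

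The cells that die or remain were read through their markers. Of 13 projection neuron markers 5 were positive and 8 negative (median -0.07, range -0.10 without knockout A to -0.029 without knockout B). Against 0.516% of all genes, 3 of the 13 fell in the block fit. The list was chosen with earlier results of these data known, so this share is a description only. Among the 3 were Rorb, a layer 4 transcription factor (log2 change -0.63, edgeR adjusted p = 0.00115), and Slc17a7, the vesicular glutamate transporter VGLUT1 (-0.48, adjusted p = 0.0160). Without the block none of the 3 passed (edgeR adjusted p = 0.0942 for Rorb and 0.309 for Slc17a7). Rorb had 33.5, 36.5 and 38.9 CPM in knockouts A, B and C, against 63.4, 57.1 and 48.9 CPM in controls A, B and C. These genes also mark maturation, and their level does not count cells.

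For the other cells, 8 of 8 Cajal-Retzius markers were positive (median 0.15, range -0.029 without control A to 0.27 without control C; Reln 0.17 ± 0.10, Cacna2d2 0.25 ± 0.14). Of 9 radial glia and intermediate progenitor markers 8 were positive (median 0.24, range 0.13 without control B to 0.27 without control A; Eomes 0.74 ± 0.24, Nes 0.33 ± 0.13), as were 3 of 8 proliferation genes (median -0.017, range -0.081 to 0.063; Aurkb 0.63 ± 0.33, Mki67 0.19 ± 0.24). Microglial markers were positive for 10 of 12 (median 0.19, range 0.19 to 0.38 without control C; Csf1r 0.52 ± 0.16, C1qb 0.53 ± 0.19), with a summed level of 178.3 to 218.7 CPM in knockouts and 148.2 to 186.5 CPM in controls. Endothelial and mural markers were positive for 10 of 11 (median 0.22, range 0.17 to 0.28; Tie1 0.82 ± 0.34, Rgs5 0.24 ± 0.11). Negative log2 changes prevailed for astrocyte markers (5 of 7, median -0.07, range -0.16 without control A to 0.12 without control C; Aqp4 -0.19 ± 0.15, Aldh1l1 -0.09 ± 0.14), oligodendrocyte lineage markers (6 of 7, median -0.13, range -0.21 without control B to -0.091; Olig1 -0.27 ± 0.12, Pdgfra -0.29 ± 0.14) and red blood cell genes (5 of 5, median -0.09, range -0.28 without knockout C to -0.038 without control C; Hbb-bt -0.30 ± 0.11, Alas2 -0.38 ± 0.22). Choroid plexus and meningeal genes, 3 of 4 positive, varied widely between libraries (median 0.34, range -0.19 without knockout B to 1.5 without control B; Ttr -2.1 ± 2.2, Dcn 0.57 ± 1.30). None of the genes just named passed in edgeR with or without the block.

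**Figure D5:**
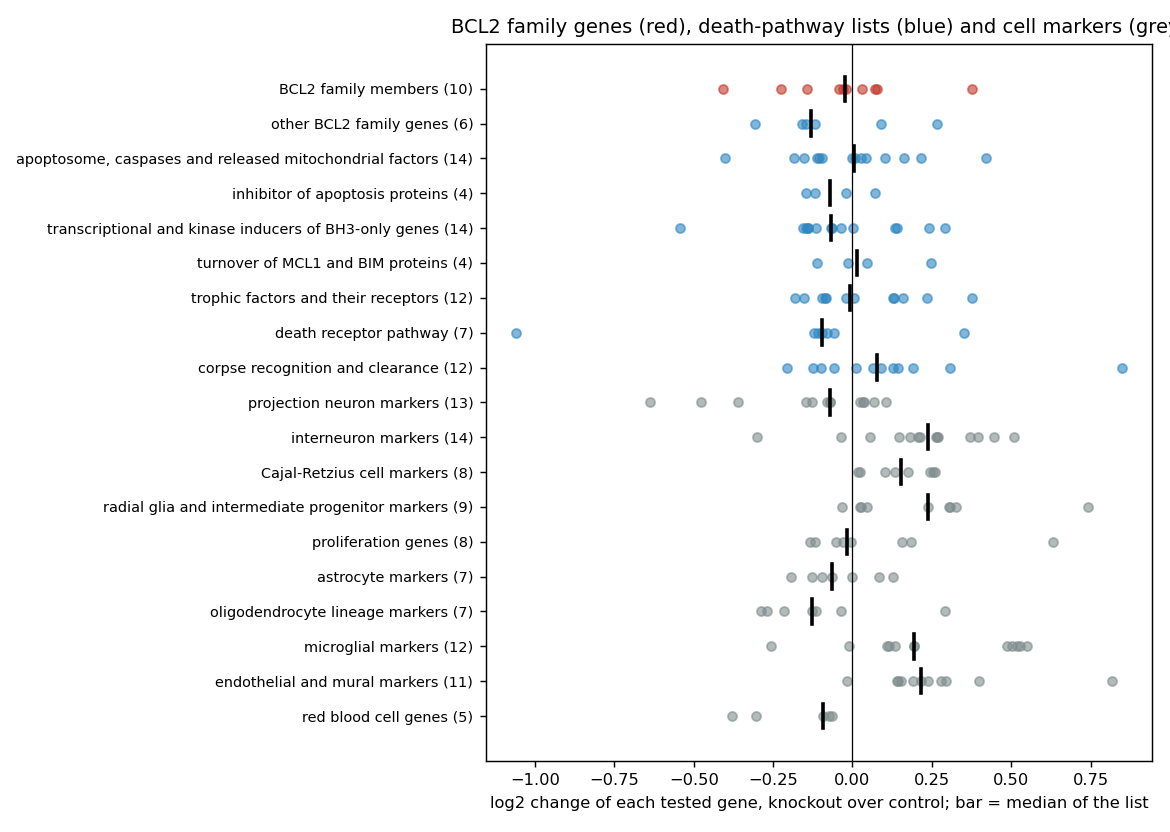
Log2 change, knockout over control (x axis), of each tested gene in the BCL2 family (red), the death-pathway lists (blue) and the cell marker lists (grey), with the number tested in brackets and a black bar at the median. The list of choroid plexus and meningeal genes is not drawn. The median of the 10 BCL2 family genes is -0.025, with Hrk at 0.38 farthest to the right, and the medians of interneuron and of radial glia markers are both 0.24.

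The genes whose levels followed Hrk most closely over the 6 libraries, among 11280 genes of at least 5 CPM on average, were Snx32, a sorting nexin (Pearson's r = 0.992), Hunk, a kinase (0.986), Lrrc8a, a subunit of volume-regulated anion channels (0.981), Man1c1, a Golgi mannosidase (0.976), and Ddr2, a collagen receptor (0.966). These r describe log2 CPM over libraries of both genotypes, so they share the genotype difference and the library sizes, and 38 genes exceeded an r of 0.9. Picking the highest of 11280 values over 6 libraries favours high r by itself, so the 5 genes are a description only. Ddr2 averaged 15.0 CPM in knockouts and 6.63 CPM in controls, a log2 change of 1.18 ± 0.21 (edgeR adjusted p = 0.0637).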

How the data were processed

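Per the labels' protocols, RNA of 1 cortical hemisphere was extracted with TRIzol and made into strand-specific polyA libraries (Lexogen SENSE, Illumina HiSeq). The authors deposited 1 table of raw, unnormalised read counts for each library, in STAR's per-gene format. The submitters' processing notes name STAR 2.5.4, GRCm38 and mm10, and the annotation release is not given in the sources used here. The column of the strand with more reads, 17.5 to 19.2 times the other, was used, and 4 summary lines were left out. With multimapping reads left out, between 26.1 and 27.7% of listed reads were unmapped. Of uniquely mapped reads, 22.5 to 27.9% lay on no exon of the counted strand and 0.689 to 0.759% were ambiguous.

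Symbols and exon lengths came from GENCODE M21 (52403 identifiers matched), promoters from RefSeq. In R 4.3.3, edgeR 4.0.16 (filterByExpr, TMM, robust quasi-likelihood F-test, two-sided, Benjamini-Hochberg adjusted p under 0.05 over all genes) compared genotypes. DESeq2 1.42.0, no TMM, no low-count filter, unstranded counts, a letter block and leaving out each library were alternatives. Only the unpaired edgeR fit was tested on simulated data, with changes larger than those of the members.

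The design text calls the samples biological replicates. Deviations of the same letter from their group means correlated across genes at 0.417, 0.342 and 0.211, and those of different letters at most at -0.031. On autosomes alone, the same letters gave 0.393, 0.242 and 0.182, and different letters at most 0.036. Deviations from a group mean sum to 0, so positive values within letters bring negative ones between letters by arithmetic. Libraries of 1 letter were treated as a pair because of the positive values within letters. The labels give no meaning for the letters, and the pairing rests on this check. The pairing entered only the differences by letter and the fits with the letter block, which were alternatives. The main edgeR fit, with its calls, standard errors, intervals and ranks, was unpaired. Every pair of libraries differed beyond sampling noise (the lowest chi-square was 3.79 times its degrees of freedom).

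The members, the 19 lists (190 entries) and the tests were chosen with earlier results of these data known. From each list the 2 tested genes with the smallest p and any called gene were named, and for the member with the smallest p the 5 genes most correlated with it. Bid, Trp73 and Ebf3 were named in addition. Sequences of Pmaip1 and a few genes chosen by this rule are not reported here. Standard errors were derived from F, and 95% intervals from these and the degrees of freedom of the fit. Both rest on the spread between 3 libraries a group after the fit moderated it with information from all genes. They are thus not the spread of the gene's own libraries alone.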

Additional observations from a re-analysis of the deposited data

How the results depend on the processing

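No BCL2 family gene passed under the replicate block, DESeq2, no TMM factors, no low-count filter, unstranded counts or with 1 library left out. Of 110 values of members under these settings, 93 had the same sign and side of the threshold and 17 the other sign, none of them from a gene that passed. Hrk, Bak1, Mcl1 and Bcl2 kept their sign in all of them. With the letter block and pair B left out, 1 member passed, Hrk (log2 change 0.52).

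The genes called over all genes, 5 in the unpaired fit, were 126 with the replicate block, 26 with DESeq2, 10 without TMM factors and 71 without the low-count filter. They were 1 to 9 with 1 library left out, and 228, 161 and 77 with the letter block and pair A, B or C left out, a choice made after seeing the data. With the block, Bax had a log2 change of -0.049. Without TMM factors Bcl2l1 had 0.018, Bcl2l2 0.0022 and Bbc3 0.011. With 1 library left out, the log2 change ran from -0.079 to 0.067 for Bcl2l1, -0.30 to 0.097 for Bcl2l2, -0.43 to 0.31 for Bax, -0.057 to 0.17 for Bcl2l11, -0.13 to 0.088 for Bbc3 and -0.87 to 0.056 for Pmaip1. With the letter block, Bax had -0.11 without pair A and -0.23 without pair B. Without pair B, Bcl2l1 had 0.098 and Mcl1 0.015, and without pair C, Bcl2l2 had 0.12, Bcl2l11 -0.12 and Bbc3 0.099. The cause was not tested. The replicate block changed no call among members, and the calls it added in the lists include Rorb, Slc17a7 and Gad2.

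With 3 libraries a group, the 95% intervals of 4 members (Bcl2, Bcl2l1, Mcl1 and Bbc3) reached no farther from 0 than -0.38 on the log2 scale, those of Bax and Pmaip1 reached beyond -1, and Pmaip1 rests on 3 to 23 reads a library.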
